A study of Drosophila melanogaster with 3 samples.

Results

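The regions described here are the 937 MCM regions that lie in the interior of 2L, the left arm of chromosome 2 of Drosophila melanogaster. They were taken from the authors' whole-series list as all regions on 2L whose start lies between 2000001 and 21000000, and they make up 13.3% of the 7029 regions of that list and 82.0% of the 1142 regions on 2L. The first runs from 2009095 to 2009176 and the last from 20961609 to 20961798, and the nearest regions outside the limits start at 1988251 and 21051827. MCM was mapped in Kc167, a female cell line from late embryos with the genotype se/e, grown as an asynchronous culture. A mouse monoclonal antibody raised against purified yeast MCM complex, said by the labels to work across species, was used for chromatin immunoprecipitation and Illumina sequencing. The group of MCM immunoprecipitations holds 2 samples from separately numbered chromatin extractions, here named replicate 1 and replicate 2. A further sample is input DNA, whose values were not analysed here. Whether the cultures behind the extractions were separate is not in the labels, so an SD over them may measure technical spread only.

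MCM2-7 is a ring of 6 related proteins and forms the core of the replicative helicase. It is loaded onto DNA before S phase by the origin recognition complex with Cdc6 and Cdt1, and only some of the loaded rings are later activated as replication forks. In Drosophila, as in other animals, more rings are known to be loaded than are used in any 1 cell cycle, and no single sequence motif is known to fix where they sit. A ChIP peak in an asynchronous culture is a position at which the antibody recovered more DNA than the caller's background, averaged over cells. It does not tell how many cells carry MCM there or whether an origin fires.

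All positions are on FlyBase release 5.1, as in the file headers, and are counted from 1. Neither the bases nor the genes of that release were used here, and regions are given by position alone. A region of the whole-series list joins overlapping peaks of both replicates, so each member was seen in both extractions by construction, and the replicate lists supply the values with a spread. Each peak carries the authors' score, whose unit is not stated. The files used hold no read counts, so the depth behind a peak is unknown. The interiors of 3L, 3R and X, cut so that about 2 Mb at each arm end was left out, served as background, with 1188, 1378 and 1238 regions, respectively.

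The interior of 2L had the fewest MCM peaks per Mb of the 4 interiors in both replicates. It held 1451 peaks in replicate 1 and 1110 in replicate 2 over 19 Mb, which is 76.4 and 58.4 peaks per Mb, or 67.4 ± 12.7 (SD, n = 2). The interior of 3R held 85.1 and 67.3 peaks per Mb, that of 3L 88.4 and 69.7, and that of X 101 and 81.2. Replicate 1 gave more peaks on every arm, so the arms were compared within each replicate. The density on 2L was 0.883 ± 0.0204 (SD, n = 2) times that on 3R, with ratios of 0.898 and 0.869 in replicates 1 and 2. It was 0.852 ± 0.0181 (SD, n = 2) times that on 3L and 0.736 ± 0.0234 (SD, n = 2) times that on X. All 6 ratios were below 1. An exact sign-flip permutation test over 2 replicates cannot go below p = 0.5, the value each of the 3 comparisons gave, so the differences exceed the spread of the ratios between replicates but were not shown by a test. In covered length the order was the same, with 1.35% and 1.04% of the 2L interior inside peaks, against 1.58% and 1.18% on 3R, 1.60% and 1.20% on 3L and 2.05% and 1.52% on X.

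Along the arm, MCM peaks were spread over the whole interior but thinned out in a few separate zones. In windows of 1 Mb the counts ran from 31 to 107 in replicate 1, with a median of 82, and from 22 to 88 in replicate 2, with a median of 64. Replicate 1 had the higher count in all 19 windows, by a factor between 1.07 and 1.88. The order of the windows was much the same in both lists, with a Spearman's rho of 0.902 over 19 windows, in which peaks found by both replicates enter both counts.

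**Figure D1:**
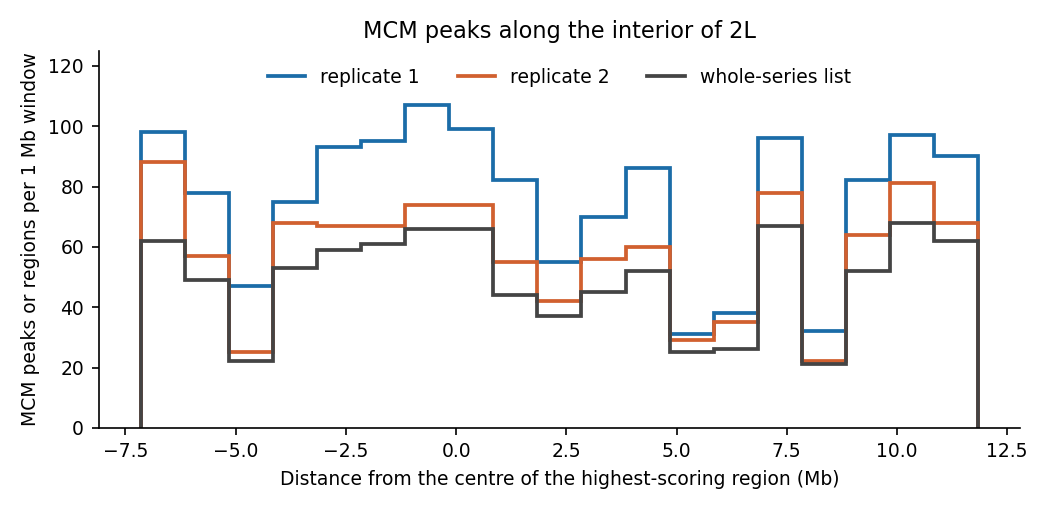
MCM peaks of replicate 1 and replicate 2 and regions of the whole-series list per 1 Mb window along the interior of 2L, plotted by distance in Mb from the centre of the highest-scoring region, with lower positions to the left. The 3 lines dip together in the windows with 22, 37, 25, 26 and 21 regions and stand between 44 and 68 regions elsewhere.

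Starting at the end near the telomere, the first window, 2000001 to 3000000, held 62 regions and the highest count of replicate 2, 88 peaks. The count of regions then dropped to 49 and, between 4000001 and 5000000, to 22, where replicate 1 had 47 peaks and replicate 2 had 25. A broad plateau followed between 5000001 and 10000000, whose 5 windows held 53, 59, 61, 66 and 66 regions. The plateau included the highest count of replicate 1, 107 peaks between 8000001 and 9000000. Between 10000001 and 14000000 the windows held 44, 37, 45 and 52 regions.

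The rest of the interior alternated between poor and rich windows. From 14000001 to 15000000 there were 25 regions, with 31 and 29 peaks in replicates 1 and 2, and from 15000001 to 16000000 there were 26, with 38 and 35 peaks. The next window, 16000001 to 17000000, was among the richest with 67 regions. It was followed by the poorest, 17000001 to 18000000, with 21 regions and with 32 and 22 peaks. The last 3 windows held 52, 68 and 62 regions, the 68 between 19000001 and 20000000 being the highest count of the interior. Neighbouring windows could therefore differ strongly in both replicates, as in the step from 96 to 32 peaks in replicate 1 and from 78 to 22 in replicate 2 past 17000000.

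The 4 poorest of these windows lay below every window of the other interiors. Those from 4000001, 14000001, 15000001 and 17000001 each held fewer peaks than any of the 62 windows of the interiors of 3L, 3R and X, whose lowest counts were 52 in replicate 1 and 42 in replicate 2. The windows were singled out after their counts were seen, and no test was made. The number falls to 2 when the grid of windows is shifted by 500 kb, and to 2 when only the higher-scoring 50% of peaks are kept. Together the 4 windows made up 21.1% of the length and held 10.03% of the regions, 94 in all. The median window of 2L was close to those of 3L and 3R, with 82 peaks in replicate 1 against 87.5 and 82, and with 64 in replicate 2 against 66 on both. The median windows of X were higher, with 102 and 82.5 peaks.

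**Figure D2:**
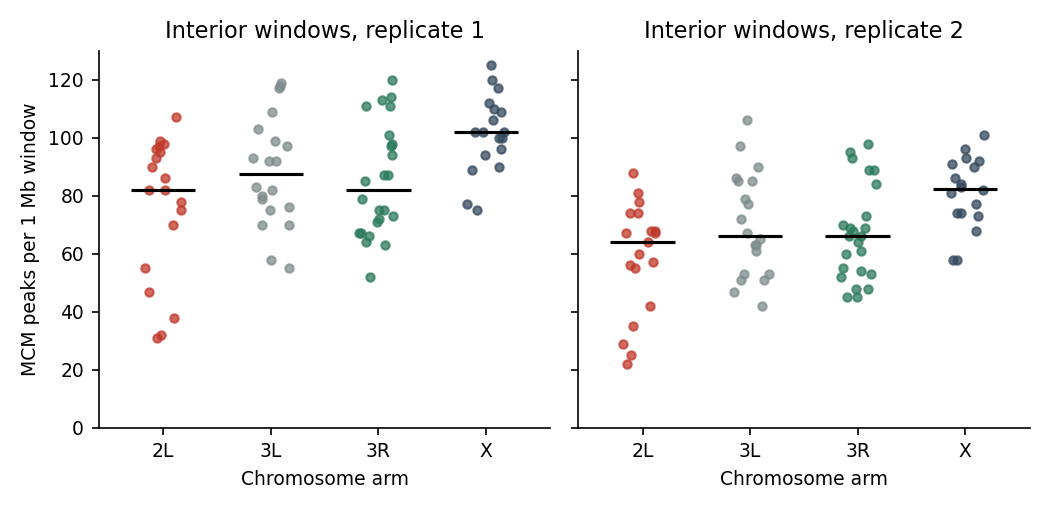
MCM peaks per 1 Mb window in the interiors of 2L, 3L, 3R and X, 1 point a window and a horizontal bar at the median, for replicate 1 on the left and replicate 2 on the right. In both panels 4 windows of 2L lie below all windows of the other arms, while the medians of 2L, 3L and 3R lie close together and that of X is higher.

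The regions inside the poor windows had scores close to those elsewhere. Their median width was 242.5 bp against 205 bp in the rest of the interior, and their median whole-series score was 2.65 against 2.63. Over all 19 windows the median score ran from 2.24 to 2.93. In the poor windows from 4000001, 14000001, 15000001 and 17000001 it was 2.92, 2.67, 2.37 and 2.24, so these windows differed among themselves. The peaks in them were found by the other replicate about as often, at 64.2% of replicate 1 peaks against 65.3% in the rest and at 85.6% of replicate 2 peaks against 86.3%. Among them were strong regions, such as 2L from 14021592 to 14022053, which is 462 bp wide and scored 5.26 in replicate 1 and 4.27 in replicate 2. Read counts and input values were not used, so fewer MCM complexes and fewer callable positions cannot be told apart.

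MCM regions of the 2L interior were short. The median width was 209 bp in the whole-series list, with an interquartile range of 137 to 319 bp, a narrowest region of 23 bp and a widest of 2525 bp. Single peaks were narrower, with medians of 126 bp in replicate 1 and 134.5 bp in replicate 2, or 130 ± 6.01 bp (SD, n = 2). The medians of the other interiors lay between 130 and 139.5 bp. The ratio of 2L to 3L and to 3R was below 1 in replicate 1 and above 1 in replicate 2, and that to X was below 1 in both, 0.903 and 0.982. Regions from 100 to under 300 bp were the most frequent class with 573 members. There were 103 regions under 100 bp, 211 from 300 to under 600 bp and 50 of 600 bp or more. These 50 were 5.34% of the regions and 18.1% of the covered length. On X, 7.84% of the regions were 600 bp or wider, on 3L 5.13% and on 3R 5.59%.

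Regions of 300 bp or more had higher median scores than narrower ones. The median whole-series score was 2.06 under 100 bp, 2.57 from there to under 300 bp, 2.95 from 300 to under 600 bp and 2.88 at 600 bp or more. In the same order the medians were 2.30, 2.83, 3.24 and 3.24 in replicate 1 and 1.91, 2.31, 2.67 and 2.67 in replicate 2, so that neither replicate had the small drop in the widest class. Over the 937 regions, Spearman's rho between width and score was 0.353, which describes calls of 1 list that share the caller and the depth.

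The scores of the 2L interior were moderate for most regions and high for few. The median peak scored 2.62 in replicate 1 (interquartile range 2.10 to 3.37) and 2.34 in replicate 2 (1.88 to 2.94), or 2.48 ± 0.200 (SD, n = 2). Of the 937 regions, 21 had a whole-series score of 5 or more, which is 2.24%, against 2.02% on 3L, 0.871% on 3R and 3.55% on X. Replicate 1 scored higher in 846 regions, or 90.3%, with a median log2 ratio to replicate 2 of 0.27. On 3L, 3R and X this was so for 88.4%, 81.8% and 89.0%. Scores of lists called separately are not on a shared scale, so these shares describe the lists, not the amount of MCM.

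The order of the regions by score was close in both extractions. Spearman's rho was 0.885 over the 937 regions, against 0.860 on 3L, 0.860 on 3R and 0.895 on X. Regions exist only where peaks of both replicates overlap, so peaks without a partner do not enter these values. Among the 10 highest-scoring peaks of each replicate, 7 of replicate 1 and 3 of replicate 2 were left out in this way. Of the 50 regions with the highest score in each replicate, 30 were in both sets. A difference of more than 2-fold between replicates occurred in 1 region, 2L from 9158467 to 9158559, which is also the highest-scoring of all. A region with a higher score in replicate 2 was 2L from 16448144 to 16448544, with 3.53 in replicate 1 and 6.12 in replicate 2. It was named here after its values were seen. The region was 401 bp wide, and the replicate 2 peak with the score of 6.12 was 40 bp wide.

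**Figure D3:**
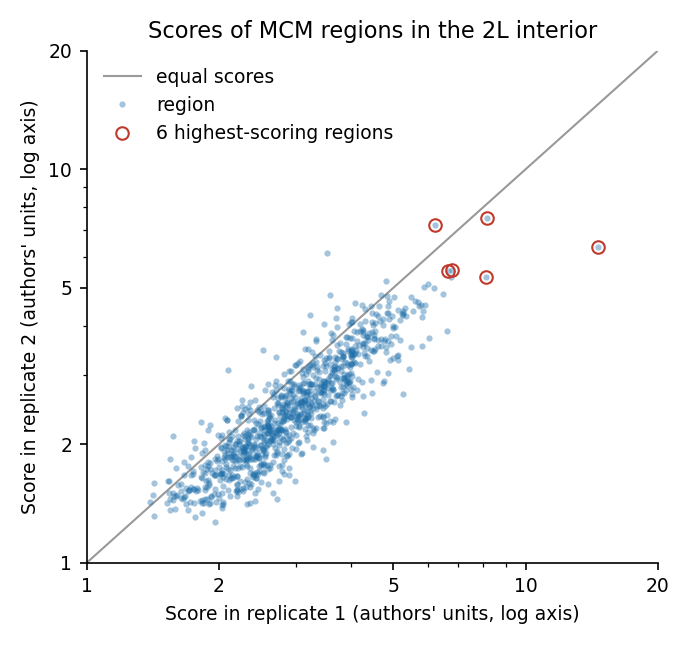
Score in replicate 1 against score in replicate 2 for the 937 MCM regions of the 2L interior, on log axes in the authors' units, with a line of equal scores and rings around the 6 regions that score highest in the whole-series list. Most points lie below the line, as 90.3% of the regions scored higher in replicate 1, and 1 ringed region lies far to the right at 14.7 in replicate 1 and 6.35 in replicate 2.

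The 6 highest-scoring regions lay apart from each other along the arm. The first, 2L from 9158467 to 9158559, scored 14.7 in replicate 1 and 6.35 in replicate 2, a mean of 10.5 ± 5.87 (SD, n = 2). It was only 93 bp wide, of which the replicate 1 peak covered 43 bp and the replicate 2 peak all 93 bp. It ranked 861 of 937 by width and 1 and 3 by score in replicates 1 and 2. Its nearest other region was 17.6 kb away. The second, 2L from 5292895 to 5293146, was more even, with 8.16 and 7.54 over 252 bp, and had its nearest other region 12.5 kb away. The first was thus short and the second slightly wider than the median region.

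The next regions in the order were closer to others. The region from 7976788 to 7977057 scored 8.11 in replicate 1 and 5.34 in replicate 2 over 270 bp, and 7.02 kb separated it from its neighbour. The region from 2161201 to 2161829 was the only one of the 6 with the higher score in replicate 2, 7.20 against 6.22, and it was 629 bp wide with a neighbour at 513 bp. The region from 12006907 to 12007835, with 6.78 and 5.56 over 929 bp, had a neighbour at 260 bp, and that from 6088367 to 6088742, with 6.67 and 5.51 over 376 bp, had one at 2157 bp. In the first 3 regions, the SD over the replicates ranged from 0.438 to 5.87 score units, so their order by mean was not separated from the spread. The 2 lists do not share a scale, so these SDs also hold the offset between lists. By rank within each list, the 3 regions stood at 1, 2 and 3 in replicate 1 and at 3, 1 and 7 in replicate 2.

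The widest regions were a different set, with scores from low to high. The widest, 2L from 12010170 to 12012694, spanned 2525 bp as 1 peak of 2388 bp in replicate 1 and as 2 peaks in replicate 2 that covered 2314 bp between them. It scored 5.17 in replicate 1 and 3.68 in replicate 2, ranks 34 and 101 of the 937. It lay 2334 bp from the region starting at 12006907, the fifth by score, and both belonged to a run of 5 regions from 12003005 to 12012694. That run had the highest median whole-series score of all 21 runs described below, 4.26, and its regions covered 51.8% of its 9.69 kb.

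**Figure D4:**
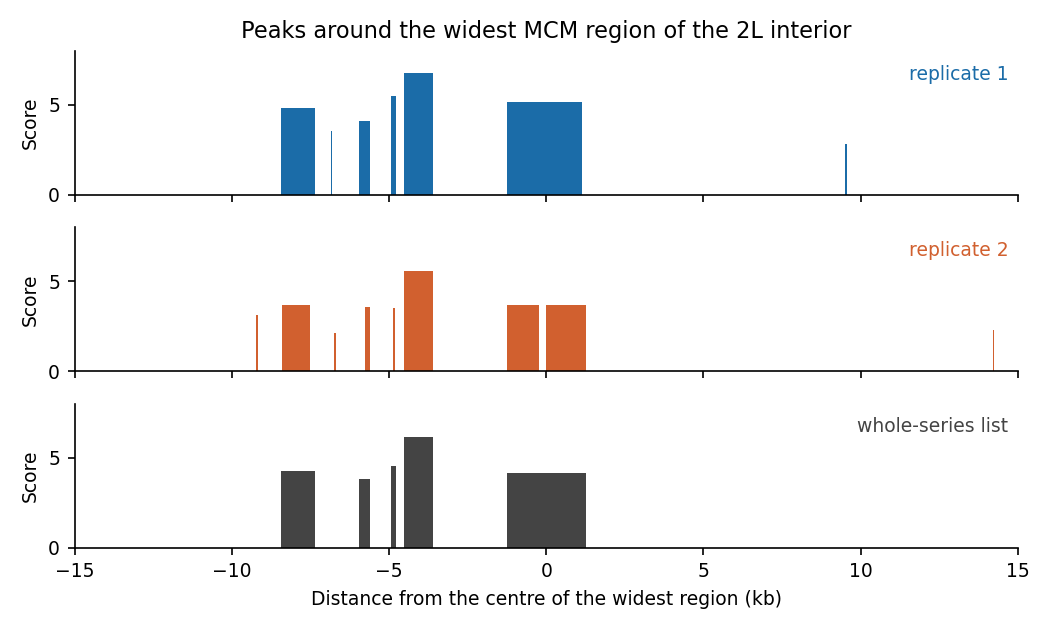
Peaks of replicate 1, replicate 2 and the whole-series list within 15 kb of the centre of the widest region of the 2L interior, drawn as bars from start to end with the authors' score as height. Both replicates place peaks at the 5 regions of the whole-series list by construction. Each replicate also has peaks in view that overlap no peak of the other. Replicate 2 splits the widest region into 2 peaks of almost equal score, 3.68 and 3.67.

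Of the other wide regions, 3 lay close together. Those from 19164645 to 19166320 (1676 bp), from 19157859 to 19159165 (1307 bp) and from 19140502 to 19141804 (1303 bp) belonged to 1 dense zone, with scores of 2.02, 2.80 and 2.58 in replicate 1 and 1.68, 2.53 and 1.99 in replicate 2. The lowest of these ranked 833 and 811 of 937, and the highest 499 and 398. The region from 2196480 to 2198153 (1674 bp) scored 4.01 and 3.501, and that from 2752207 to 2753390 (1184 bp) 5.59 and 4.64, ranks 21 and 19. In all 6 widest regions each replicate covered at least 82.1% of the region's length.

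Most regions joined a single peak from each extraction. Of the 937 regions, 908, or 96.9%, consisted of exactly 1 peak from each replicate. In these the starts differed by a median of 23 bp, the ends by 22 bp and the centres by 16 bp, and 84.6% of the centres were within 50 bp of each other. The largest numbers of peaks in 1 region were 2 in each replicate. The other interiors gave medians of 15.3 to 16 bp for the centres. Regions exist only where peaks of both replicates overlap, so these offsets are in part set by how regions were made. Replicate 1 covered a median of 98.3% of a region and replicate 2 a median of 82.5%, and in 77.1% of the regions both replicates covered at least 50%.

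Of the peaks called in the 2L interior, 65.2% of those of replicate 1 (946 of 1451, exact Clopper-Pearson 95% interval 62.7% to 67.6%) overlapped a peak of replicate 2, and 86.2% of those of replicate 2 (957 of 1110, 84.0% to 88.2%) overlapped a peak of replicate 1. These intervals cover counting error only, and peaks are not independent. The shares on 3L, 3R and X ran from 67.6% to 68.6% and from 86.9% to 87.7%. Shared peaks were wider than the others, with medians of 190 and 154 bp in replicates 1 and 2. In part this is built in, since a wider peak has more bases with which to overlap by 1 bp. They also scored higher, with medians of 2.86 against 2.23 in replicate 1 and 2.37 against 2.12 in replicate 2. All 93 peaks of replicate 2 of 400 bp or more were shared and 99.2% of the 120 of replicate 1, against 51.6% of the 192 and 15.7% of the 274 peaks under 50 bp. The 505 peaks of replicate 1 without a partner had a median width of 55 bp, and the 153 of replicate 2 of 42 bp.

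High-scoring peaks without a partner were a further feature of the lists. Among the 10 peaks of replicate 1 with the highest scores in the interior, 7 had no overlapping peak in replicate 2. An overlapping but not identical set of 7 was under 50 bp wide. It included the shared peak of 43 bp in the highest-scoring region of the interior. The peak from 7530945 to 7531016 scored 12.9, second in replicate 1, yet the nearest peak of replicate 2 was 4.001 kb away. The peak from 5520256 to 5520259 scored 11.2 over 4 bp, with the nearest replicate 2 peak at 7.81 kb. In replicate 2, 3 of the 10 highest-scoring peaks had no partner, among them the highest of all, from 5649613 to 5649615, with 8.47 over 3 bp. Peaks without a partner are not among the 937 regions.

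The spacing of MCM peaks on 2L was uneven at every scale measured. Neighbouring peaks were separated by a median of 3827 and 5206 bp in replicates 1 and 2, or 4516 ± 975 bp (SD, n = 2), while the upper quartiles were 13324 and 17302 bp and the longest gaps 307774 and 354324 bp. The gap on 2L was 1.44 ± 0.0160 (SD, n = 2) times that on X, 1.17 ± 0.0293 times that on 3L and 1.12 ± 0.0332 times that on 3R. These 6 ratios were all above 1, with an exact permutation p of 0.5 for each arm, the smallest possible. Gaps and counts per Mb come from the same peaks, so these ratios are not a result separate from the lower density. A neighbour lay within 1 kb for 46.1% of replicate 1 peaks and 41.9% of replicate 2 peaks, and within 10 kb for 88.1% and 83.6%. At the other end, 5.31% and 7.93% had none within 20 kb. The variance of the counts in 190 windows of 100 kb was 4.85 times their mean in replicate 1 and 4.19 times in replicate 2. The values were 4.58 and 3.94 on 3L, 4.74 and 4.05 on 3R, and 5.14 and 4.64 on X. This measure can change with the mean count, which differed between arms.

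**Figure D5:**
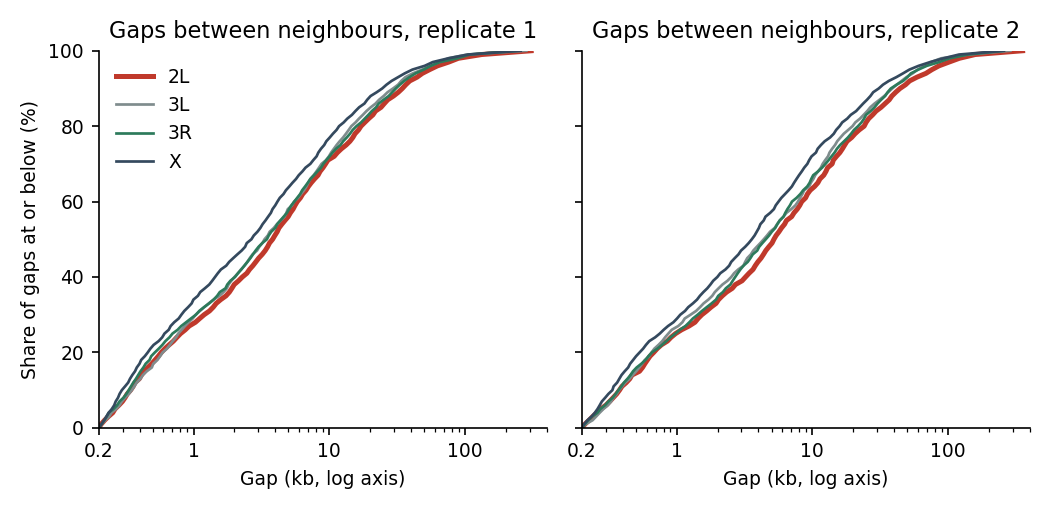
Share of gaps between neighbouring MCM peaks at or below a given length, in kb on a log axis, for the interiors of 2L, 3L, 3R and X, with replicate 1 on the left and replicate 2 on the right. The curve of 2L lies to the right of the others around the median, with medians of 3827 and 5206 bp, and that of X lies to the left, with 2671 and 3578 bp.

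Regions close to another region were wider. The 335 regions with a neighbouring region within 1 kb had a median width of 240 bp, the 430 with one at 1 to 10 kb had 203.5 bp, and the 172 with none within 10 kb had 183.5 bp. Widths fell in the same order on 3L (226.5, 199 and 187 bp), 3R (229, 200 and 167 bp) and X (250, 197 and 177.5 bp). Scores showed no such order, with medians of 2.75, 2.51 and 2.65 in the whole-series list. The 18 regions over 50 kb from any other had a median width of 175.5 bp and a median score of 3.17, with scores from 1.97 to 5.14. On X the 12 regions of that kind had a median score of 4.33, on 3L 13 had 2.48 and on 3R 15 had 2.66.

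Dense zones were scattered over the interior. Of 190 windows of 100 kb, 27 held 10 or more regions, and these 14.2% of the windows held 36.2% of the regions. The corresponding share of windows was 21.5% on 3L, 17.9% on 3R and 28.9% on X. The cut of 10 regions is fixed, so this share is not a result separate from the lower density on 2L. The densest window, 5000001 to 5100000, held 21 regions, with 27 peaks in replicate 1 and 22 in replicate 2. It borders directly on the poor window that starts at 4000001, whose last 100 kb held 3 regions, and the next 100 kb held 4. Its regions covered 6.26 kb, and the strongest was 2L from 5093957 to 5094078 with 4.89 in replicate 1 and 4.62 in replicate 2.

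The second densest window, 19100001 to 19200000, differed from the others in form. It held 19 regions, with 26 peaks in replicate 1 and 27 in replicate 2, and they covered 11.4 kb, the most of the 6 densest windows. Their median width was 428 bp, against 190 to 290 bp in the other 5, and their median score was 1.85, against 2.16 to 3.17. It contains 3 of the 6 widest regions and 2 runs of regions. One run held 8 regions from 19154665 to 19166320 that covered 59.4% of its 11.7 kb, the highest coverage of any run. Their widths ranged from 290 to 1676 bp and their scores from 1.48 to 2.66. The other held 7 regions from 19131581 to 19146212. No peak of either replicate was called for 175 kb after the last region of this zone, which ended at 19186096.

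The third to sixth windows by count were 9900001 to 10000000 and 19500001 to 19600000 with 16 regions each, 11000001 to 11100000 with 15 and 2100001 to 2200000 with 14. The last of these had the highest median score of the 6, 3.17, and contains the region from 2161201, the fourth by score. In replicates 1 and 2 these 4 windows held 24 and 19, 21 and 18, 22 and 15, and 18 and 19 peaks. The median window held 6.5 and 5 peaks. Windows were ranked here by regions, which need a peak of both replicates, so high counts in both extractions follow from the choice.

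Runs of 5 or more regions with gaps of at most 5 kb numbered 21 and held 128 regions, or 13.7%. The share was 19.6% on 3L, 17.0% on 3R and 28.2% on X, and in the replicate lists it was 31.6% and 22.3% on 2L, against 36.6% and 28.7% on 3L, 35.5% and 24.2% on 3R, and 43.4% and 33.8% on X. The gap limit of the runs is fixed, so these shares are not a result separate from the lower density on 2L. The longest run had 9 regions from 16520863 to 16536695. They were 89 to 988 bp wide, and the strongest, from 16525896 to 16526482, scored 4.84 in replicate 1 and 4.31 in replicate 2. Each of its 9 regions was 1 peak in both replicates, as were 96.9% of all regions. The run lies in the rich window between the poor ones that start at 15000001 and 17000001.

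The next runs had 8 or 7 regions. That from 5977294 to 5987287 packed 8 regions into 9.99 kb and covered 44.4% of it, and its regions consisted of 11 peaks in replicate 2 against 8 in replicate 1. Its strongest region, from 5978650 to 5979093, scored 4.003 and 4.08. The run from 9907353 to 9921692 held 8 regions with 8 peaks in each replicate over 14.3 kb and covered 14.5% of it. The run from 2193389 to 2203621 held 7 regions, among them the third widest of the interior, and that from 9698529 to 9706087 held 7 regions of much the same width, 182 to 296 bp. Runs thus ranged from chains of short, separate regions to stretches that were mostly covered.

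Long stretches without an MCM peak took up much of the interior. There were 24 stretches of at least 100 kb without a peak in either replicate, and they summed to 3.73 Mb, or 19.6% of the interior. On 3L 21 such stretches made up 14.96%, on 3R 29 made up 16.9% and on X 20 made up 16.3%. Counted in each replicate alone, 2L had 26 and 35 of them, 3L 22 and 25, 3R 30 and 34, and X 23 and 27. Stretches of 200 kb or more numbered 5 on 2L, 2 on 3L, 2 on 3R and 3 on X. The numbers per Mb were closer together, with 1.26 on 2L against 1.05, 1.21 and 1.11.

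The longest stretch ran from 16888975 to 17196748 (308 kb). The 100 kb before it held 14 and 12 peaks in replicates 1 and 2, and the 100 kb after it held 3 and 2. The second, from 11528934 to 11797833 (269 kb), was followed by 10 and 8 peaks within 100 kb, among them a run of 5 regions from 11804886 to 11809480. The third, from 3897952 to 4161076 (263 kb), and the fourth, from 4463640 to 4726137 (262 kb), together took up 424 kb of the poor window that starts at 4000001. Between them lay 12 of that window's 22 regions, from 4197307 to 4458399.

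The fifth stretch, from 16049854 to 16251658 (202 kb), had few peaks on one side and many on the other. The 100 kb before it held 3 peaks in each replicate, and the 100 kb after it held 26 in replicate 1 and 22 in replicate 2. The sixth, from 19186097 to 19361434 (175 kb), was bordered by dense zones on both sides, with 26 and 27 peaks before it and 21 and 16 after it. Of the 24 stretches, 10 had their middle in the 4 poor windows, where long stretches took up 1.49 Mb. Others lay in rich windows, such as the stretch from 19587269 to 19735707 (148 kb), which followed 26 and 20 peaks in the 100 kb before it. Poor windows and long stretches are therefore overlapping but not identical descriptions of the arm.

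The most isolated region, 2L from 14851800 to 14851938, stood between stretches of 145 and 144 kb with no other peak in either replicate. It was 139 bp wide and scored 2.67 in replicate 1 and 2.10 in replicate 2, close to the median of the regions in each list, 2.87 and 2.36. The region from 2585370 to 2585566, the second, was 79.7 kb from the nearest peak and scored 5.76 and 4.52, ranks 18 and 25. The third, from 4726138 to 4726295, was 68.3 kb from the nearest peak, at the end of the fourth longest stretch, and scored 4.01 and 3.72. All 3 consisted of 1 peak from each replicate, as did 96.9% of all 937 regions. Each replicate covered at least 85.8% of the region, where the medians over all regions were 98.3% in replicate 1 and 82.5% in replicate 2.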

How the data were processed

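The deposited files name PeakSeq as the caller and, in their headers, FlyBase release 5.1 as the build. The aligner and the caller's version and settings were not given in the sources used here. Each deposited score is the authors' own, its unit is not stated, and regions were ranked and selected by it within a list. The 2 replicate lists were called separately, and the whole-series list joins their overlapping peaks. No read counts were used, so depth is unknown.

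The interiors were starts over 2 Mb and up to 21 Mb on 2L, 22 Mb on 3L, 26 Mb on 3R and 20 Mb on X. Width is end minus start plus 1. Windows count regions by midpoint. A peak was shared if it overlapped the other list by at least 1 bp. Regions named are the 6 highest-scoring, 6 widest and 3 most isolated, and the 6 densest windows, runs and longest free stretches. Other regions named, the 4 poor windows and the high-scoring unshared peaks were chosen after their values were seen. Members and measures were chosen with earlier results of these data known. Arms were compared by the ratio within each replicate and an exact sign-flip permutation test over 2 replicates. Helper functions were tested on simulated data. Python 3.11.15, NumPy 2.4.6 and SciPy 1.17.1 were used.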

Additional observations from a re-analysis of the deposited data

How the results depend on the processing

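Of 86 values recomputed under other settings, 53 stayed and 33 did not. To stay meant to lie within the spread between replicates, the binomial interval or a factor of 1.5 of the value reported. For ratios it meant the same side of 1. Part of the 53 could not have failed. With 2 replicates, leaving 1 out always moves their mean by less than the SD, so values judged by that spread had to stay. For the ratios between arms, leaving 1 replicate out only repeats the ratios within each replicate already reported. The ratios of peaks per Mb on 2L to 3L, 3R and X stayed below 1 under all settings tried, but with the higher-scoring 50% of peaks that to 3R was 0.978 and that to 3L 0.928, while that to X was 0.709. With that selection 2L had 35 peaks per Mb, a median width of 183 bp, a median score of 3.12, a median gap of 10892 bp, 31.1% of peaks with a neighbour within 1 kb, a variance of 2.60 times the mean, 61.5% of replicate 1 peaks shared, 4 runs and 2 poor windows. With peaks within 1 kb merged, there were 49.4 peaks per Mb, a median width of 172 bp, a median gap of 8246 bp, a variance of 2.74 times the mean, 70.1% and 88.9% of peaks shared and 4 runs. In the whole-series list, there were 49.3 regions per Mb, a median width of 209 bp, a median gap of 6651 bp, 35.8% with a neighbour within 1 kb, a variance of 3.52 times the mean and 38 free stretches. An overlap of 50% of the narrower peak left 83.3% of replicate 2 peaks shared, and peaks within 500 bp gave 73.9% and 92.9%. Runs numbered 51.5 on average in the replicate lists (37 to 66 with 1 replicate left out), 8 with gaps up to 2 kb and 51 up to 10 kb. Free stretches numbered 83 from 50 kb and 5 from 200 kb. Poor windows numbered 2 on a grid shifted by 500 kb, an alternative added after seeing the data. The causes were not tested beyond what each setting removes. Arms were compared within each replicate throughout. The replicates could not be paired with input, because no input values were used. Unknown depth limits all values, and a missing peak does not show that MCM is absent.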

Other observations

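The interior of 2L was also described in 3 divisions, with limits at 8 and 14 Mb. Between 2 and 8 Mb, the 306 regions had median scores of 3.12 in replicate 1 and 2.54 in replicate 2. Between 8 and 14 Mb, the 310 regions had 2.79 and 2.31, and between 14 and 21 Mb the 321 regions had 2.75 and 2.28. Median widths were 203.5, 206 and 223 bp in the same order. Peaks per Mb were 71.5 ± 13.4, 71.7 ± 16.3 and 60.2 ± 8.99 (SD, n = 2 each), and stretches of 100 kb or more without a peak numbered 4, 7 and 13. In order from the telomere side, the median whole-series scores of the 1 Mb windows in the first division were 2.68, 2.64, 2.92, 2.93, 2.79 and 2.92. The lowest were those of the windows that start at 2000001 and 3000001, and the later windows showed no steady order. These divisions were made after the data were seen, and no test was made.

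Neighbouring windows of 100 kb on 2L were only weakly alike in their number of regions, with a Spearman's rho of 0.225 between adjacent windows. It was 0.189 on 3L, 0.0213 on 3R and 0.225 on X. These windows share the depth and the caller, and the values are descriptions of the whole-series list.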
